A study of Rattus norvegicus with 2 samples.

Results

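This account covers 10 genes that code for amino acid carriers of the cell surface, Slc7a1, Slc7a3, Slc7a5, Slc7a11, Slc3a2, Slc38a1, Slc38a2, Slc1a4, Slc1a5 and Slc6a9. They were taken by symbol from the deposited gene table, and each matched 1 of its 25399 genes. The genes were picked with their levels in both libraries and their joint detection in treated cells known, so both are given below as descriptions, with no test. The study read single-cell RNA from 2 cultures of neural stem cells of the rat (Rattus norvegicus), bought as cells isolated from E14.5 Sprague-Dawley cortex. The vehicle culture received DMSO at 0.2%. The other received 30 µM ZD7288, a blocker of the HCN channels, cation channels that open on hyperpolarisation, in the same amount of DMSO. Both were held in complete medium with FGF2, which keeps such cells from differentiating, for 48 h, with medium and compound replaced at 24 h. One label of the treated culture writes the compound as ZD2788.

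Animal cells cannot make all amino acids and take the rest up through carriers with overlapping substrates. SLC3A2 is a heavy chain that does not carry amino acids by itself: it brings light chains such as SLC7A5 and SLC7A11 to the plasma membrane. SLC7A5 exchanges large neutral amino acids such as leucine against glutamine, SLC7A11 takes up cystine, the source of cysteine for glutathione, in exchange for glutamate, and SLC7A1 and SLC7A3 carry arginine and lysine. SLC1A4 and SLC1A5 exchange small neutral amino acids, SLC38A1 and SLC38A2 carry glutamine and alanine with sodium, and SLC6A9 takes up glycine. When amino acids run short or the endoplasmic reticulum is stressed, kinases phosphorylate eIF2α, and the transcription factor ATF4 is then made and drives many of these genes; NRF2, the factor of the oxidative stress response, is a known regulator of Slc7a11.

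Each group was 1 library, with no replicate, so culture, library and treatment cannot be told apart, and intervals cover counting error only. After a filter on depth, detected genes and mitochondrial share, 732 vehicle cells with 15611454 UMIs (unique molecular identifiers, one per captured molecule) and 3135 ZD7288 cells with 73681950 UMIs were kept. Median depth was 17119 and 23001 UMIs per cell, and the median mitochondrially encoded share was 5.84% and 4.70%. Kept cells of the 2 libraries shared 3 barcode sequences. The vehicle cells with those barcodes held 0 Slc7a3 and 0 Slc7a11 UMIs, and the summed level of the 10 genes differed 3.82-fold without these cells. The labelled cell type was checked on its markers. Vim, Fabp7, Sox2 and Nes lay at 4204, 2647, 230 and 121 CPM (counts per 1000000 UMIs) in the vehicle library and at 4690, 2023, 247 and 134 CPM in the ZD7288 library, while Hes5 had 4 and 3 UMIs and Prom1 26 and 37. Of the 10 measured markers of the neural stem cell list 2 were higher by 1.5-fold (Slc1a3 and Msi1) and 3 lower (Sox9, Hes1 and Notch1), and the part of these shifts in the results was not tested. The culture also held Olig1, a marker of the oligodendrocyte lineage, at 1687 and 896 CPM. The 9 markers of that lineage summed to 2272 and 1235 CPM, with 3 of 3 measured ones lower by 1.5-fold, and the part of this in the results was not tested. Others of the 9 were near 0, with Mbp at 3 and 10, Sox10 at 3 and 10, Pdgfra at 22 and 8 and Mog at 0 and 1 UMIs. The 9 markers of microglia and macrophages summed to 0 and 0.0271 CPM, with 7 of 9 at 0 UMIs in both libraries. Markers of neurons, intermediate progenitors and astrocytes summed to 172 and 188, 240 and 246, and 70.0 and 82.2 CPM. Of the 2 measured in each of these lists, 1 neuron marker was higher by 1.5-fold and 0 were lower. Markers of endothelial cells summed to 0.0641 and 0.380 CPM, and those of pericytes and fibroblasts to 7.94 and 18.4 CPM.

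Promoter sequences were read because most of the members were higher after treatment and several are known ATF4 targets. RefSeq windows (assembly GRCr8, 250 bases before to 50 after a start site) were on hand for 8 of the 10 genes, and Slc3a2 had 2 windows. Windows were searched on both strands for TGATGNAA, the core of the composite C/EBP-ATF element that ATF4 can bind, and for TGACNNNGC, the core of the antioxidant response element that NRF2 can bind, whose first letters overlap with those of an AP-1 site. The first stood in 3.98% of all 33469 windows (1332) and the second in 12.1% (4038). The 3 members with TGATGNAA were Slc1a4, Slc38a1 and Slc7a1, and the stretches that hold it are shown with the match in capitals, 5′ to 3′ in the direction of the gene. In Slc7a1 (chr12:11664398-11664487, plus strand) the match lay 30 to 23 bases before the start site, in Slc38a1 (chr7:129681476-129681603, minus strand) 142 to 135 bases before it, and in Slc1a4 (chr14:98761730-98761812, minus strand) 235 to 228 bases before it, there on the opposite strand to the gene.
Slc7a1: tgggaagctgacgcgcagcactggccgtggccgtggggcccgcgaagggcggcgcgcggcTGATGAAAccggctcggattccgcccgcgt
Slc38a1: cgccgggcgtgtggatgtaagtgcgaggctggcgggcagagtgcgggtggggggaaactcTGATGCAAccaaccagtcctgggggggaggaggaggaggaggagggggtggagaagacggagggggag
Slc1a4: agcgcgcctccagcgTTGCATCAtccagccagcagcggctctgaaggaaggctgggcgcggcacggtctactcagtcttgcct
The antioxidant core matched in the windows of Slc7a1 (GCGCTGTCA, 107 to 99 bases before the start), Slc38a2 (TGACGCGGC, 50 to 42 bases before it) and 1 of the 2 of Slc3a2 (GCGGAGTCA, 45 to 37 bases before it). Neither core matched in the windows of Slc7a5, Slc7a11 and Slc6a9. A match is a string of letters and says nothing of binding in these cells. A window without a match says nothing of sequence outside it, such as introns, which was not searched.

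In the ZD7288 library, 9 of the 10 carriers were at least 1.5-fold higher than in the vehicle library and 0 were lower by that factor; Slc38a2 passed neither. Over the 4823 genes that reached 20 CPM in 1 library or both, called measured here, 10.1% were higher and 5.2% lower by 1.5-fold. With libraries scaled to a median gene ratio of 1, these shares were 7.30% and 7.40%. At 2-fold the counts were 6 of 10 carriers higher and 0 lower, against 2.88% and 1.26% of measured genes, and at 5-fold 2 of 10 higher against 0.415%. The genes were chosen on this contrast, so nothing is read from these counts. Slc38a1 stayed under the floor of 20 CPM in both libraries, and 3 of the 9 measured carriers (Slc7a3, Slc7a11 and Slc6a9) reached it only in the treated library. Of the 6 that reached it in the vehicle library 5 were higher by 1.5-fold and 0 lower, where 7.16% of 4472 genes were higher and 5.61% lower. The median log2 ratio of the 10 was 1.69, beside 0.09 over measured genes. CPM values are shares of counted UMIs, and parts of a sum given below are parts of UMIs. How well the transcripts of each gene were captured was not measured. A higher CPM of 1 gene than of another is therefore a difference in UMIs only.

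Slc3a2, the shared heavy chain (ENSRNOG00000018487), had 2907 UMIs in vehicle cells and 63448 in ZD7288 cells. That was 186 CPM (95% Poisson interval 180 to 193) against 861 CPM (854 to 868), a ratio of 4.62 (exact interval 4.46 to 4.80). Its light chain Slc7a5 (ENSRNOG00000018824), with 1697 and 28183 UMIs, lay at 109 CPM (104 to 114) and 382 CPM (378 to 387), a ratio of 3.52 (3.35 to 3.70). The heavy chain and the leucine carrier were thus higher together, the heavy chain by the larger factor. The cystine carrier Slc7a11 (ENSRNOG00000010210) had few UMIs in the vehicle library, 51 in 40 cells, against 4455 in the treated one. Its level was 3.27 CPM (2.43 to 4.30) against 60.5 CPM (58.7 to 62.3), a ratio of 18.5 (14.1 to 24.9), the 5th highest of all measured genes.

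The 2 carriers of arginine and lysine differed from each other in size of change. Slc7a3 (ENSRNOG00000004133) had 62 UMIs in 37 vehicle cells, at most 7 in 1 cell, and 13376 in the treated library. It lay at 3.97 CPM (3.04 to 5.09) and 182 CPM (178 to 185), a ratio of 45.7 (35.6 to 59.7) and rank 3 among measured genes. Slc7a1 (ENSRNOG00000000924), its paralogue, with 462 and 3712 UMIs, lay at 29.6 CPM (27.0 to 32.4) and 50.4 CPM (48.8 to 52.0), a ratio of 1.70 (1.55 to 1.88) and rank 261. The intervals of the 2 ratios did not overlap.

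The exchangers of small neutral amino acids differed likewise. Slc1a5 (ENSRNOG00000015948), which carries glutamine, had 1094 and 19890 UMIs, or 70.1 CPM (66.0 to 74.4) and 269.9 CPM (266 to 274), a ratio of 3.85 (3.62 to 4.10). Slc1a4 (ENSRNOG00000005248), which carries alanine, serine and cysteine, had 322 and 2328 UMIs. Its level of 20.6 CPM (18.4 to 23.0) against 31.6 CPM (30.3 to 32.9) gave a ratio of 1.53 (1.36 to 1.73), whose interval spans the 1.5-fold rule. It was the carrier just inside that rule, and it fell under it in 4 of the other settings (1.44 to 1.499). The glycine carrier Slc6a9 (ENSRNOG00000019484), with 308 and 4274 UMIs, lay at 19.7 CPM (17.6 to 22.1) and 58.0 CPM (56.3 to 59.8), a ratio of 2.94 (2.62 to 3.31).

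The 2 sodium-coupled glutamine carriers went in opposite directions. Slc38a1 (ENSRNOG00000005291) had 136 and 1076 UMIs, or 8.71 CPM (7.31 to 10.3) and 14.6 CPM (13.7 to 15.5), a ratio of 1.68 (1.40 to 2.02). Slc38a2 (ENSRNOG00000006305), a textbook ATF4 target, was the carrier outside the rule. It had 1010 and 4025 UMIs, or 64.7 CPM (60.8 to 68.8) and 54.6 CPM (53.0 to 56.3), a ratio of 0.844 (0.788 to 0.906), so its level was slightly lower in the treated library. Within the lower, middle and upper range of mitochondrial share, described below, this ratio was 1.13 (0.885 to 1.47), 0.864 (0.745 to 1.01) and 0.726 (0.662 to 0.798). The intervals of the lower and the middle range span 1, and the lower one rests on 67 UMIs in 71 vehicle cells. Within ranges of depth it was 0.965 (0.852 to 1.09) in the lower, 0.832 (0.702 to 0.992) in the middle and 0.761 (0.689 to 0.841) in the upper range. The lower range of depth held 458 of the vehicle cells. The ratio of Slc38a1 was 1.36 when each cell counted equally or was thinned to 5000 UMIs, under the 1.5-fold rule. The 3 members whose window held TGATGNAA had the 3 smallest ratios after that of Slc38a2. Windows for Slc7a3 and Slc1a5 were not analysed here, and sequence outside the windows was not searched for any member. The genes were also chosen on these ratios, so nothing is read from this order.

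**Figure D1:**
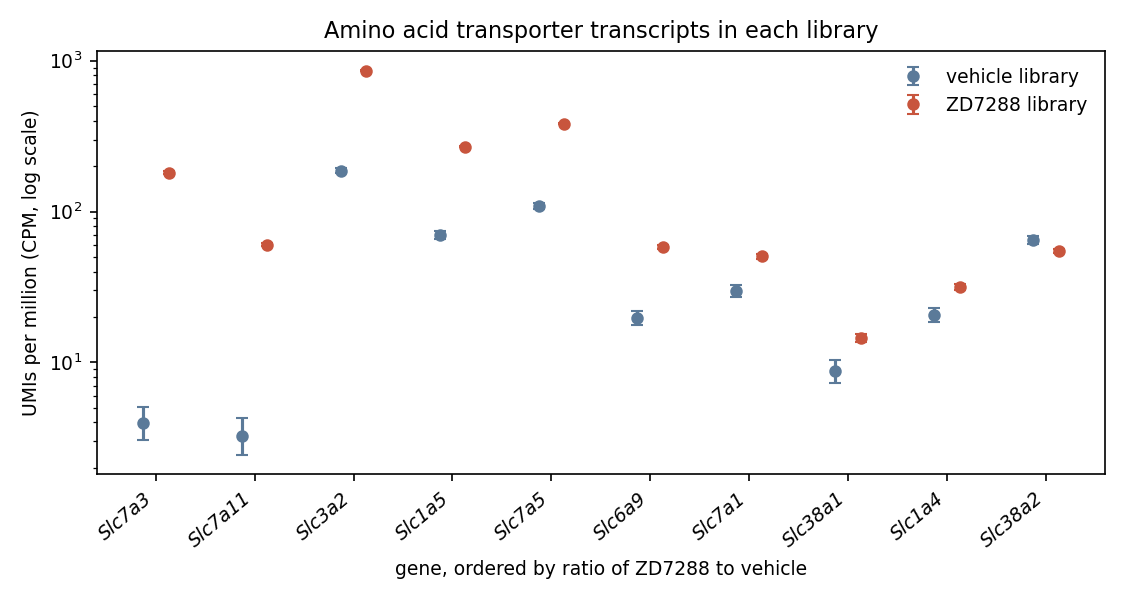
Level of each carrier in the vehicle and the ZD7288 library, in CPM on a log axis, with 95% Poisson intervals as error bars and 1 library per group. Slc7a3 (3.97 and 182 CPM) and Slc7a11 (3.27 and 60.5 CPM) lie farthest apart, and Slc38a2 is the gene whose treated value is the lower one.

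Summed over the 10 genes, the vehicle library held 516 CPM (504 to 527) and the treated library 1965 CPM (1955 to 1975), a ratio of 3.81 (3.73 to 3.90). Slc3a2 gave 46.6% of the difference, Slc7a5 18.9%, Slc1a5 13.8% and Slc7a3 12.3%. The make-up of the carrier UMIs shifted with it. Slc7a3 went from 0.770% to 9.24% of them and Slc7a11 from 0.634% to 3.08%, while Slc38a2 went from 12.5% to 2.78%. Slc7a5 and Slc1a5 kept a similar part, with 21.1% and 19.5% for the first and 13.6% and 13.7% for the second.

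To set cells of unequal depth side by side, each was thinned to 5000 UMIs. Shallower cells were dropped, 22 of the vehicle and 297 of the ZD7288 library, leaving 710 and 2838. Slc3a2 was then seen in 57.0% of vehicle cells (binomial interval 53.3 to 60.7) and 95.5% of ZD7288 cells (94.6 to 96.2), and without thinning in 87.4% and 96.7%. Slc7a5 went from 39.7% (36.1 to 43.4) to 81.5% (80.1 to 82.9), unthinned 76.6% and 93.3%, and Slc1a5 from 25.8% (22.6 to 29.2) to 70.0% (68.3 to 71.7), unthinned 62.8% and 91.0%. These 3 genes were thus seen in most treated cells even at the thinned depth. Slc7a3 was seen in 11 of 710 vehicle cells, or 1.55% (0.776 to 2.76), and in 52.4% of ZD7288 cells (50.5 to 54.2), unthinned 5.05% and 81.3%. Slc7a11 was seen in 8 vehicle cells, or 1.13% (0.488 to 2.21), and in 23.9% of ZD7288 cells (22.3 to 25.5), unthinned 5.46% and 58.8%. Free RNA can give such low shares, and as no cell type that lacks these genes was set apart here, there is no background share for either library, and the vehicle shares of Slc7a3 and Slc7a11 are not read as expression.

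The other carriers were seen in fewer cells. Slc6a9 went from 9.15% (7.14 to 11.5) to 24.6% (23.0 to 26.2), unthinned 29.8% and 64.4%, Slc7a1 from 12.3% (9.93 to 14.9) to 19.9% (18.5 to 21.5), unthinned 37.6% and 58.1%, and Slc1a4 from 8.31% (6.39 to 10.6) to 14.1% (12.8 to 15.4), unthinned 32.1% and 46.9%. For Slc38a1 the shares were 5.49% (3.93 to 7.43) and 7.05% (6.13 to 8.05), unthinned 16.1% and 25.9%, with intervals that overlap. For Slc38a2 they were 23.9% (20.8 to 27.3) and 22.4% (20.9 to 24.0), unthinned 63.1% and 63.7%. A difference in the share of cells with either sodium-coupled carrier was not detectable at 5000 UMIs. At 10000 UMIs, with 661 vehicle and 2763 ZD7288 cells, the shares of Slc38a1 were 7.87% and 12.5%. Those of Slc38a2 were 44.3% and 41.1%.

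**Figure D2:**
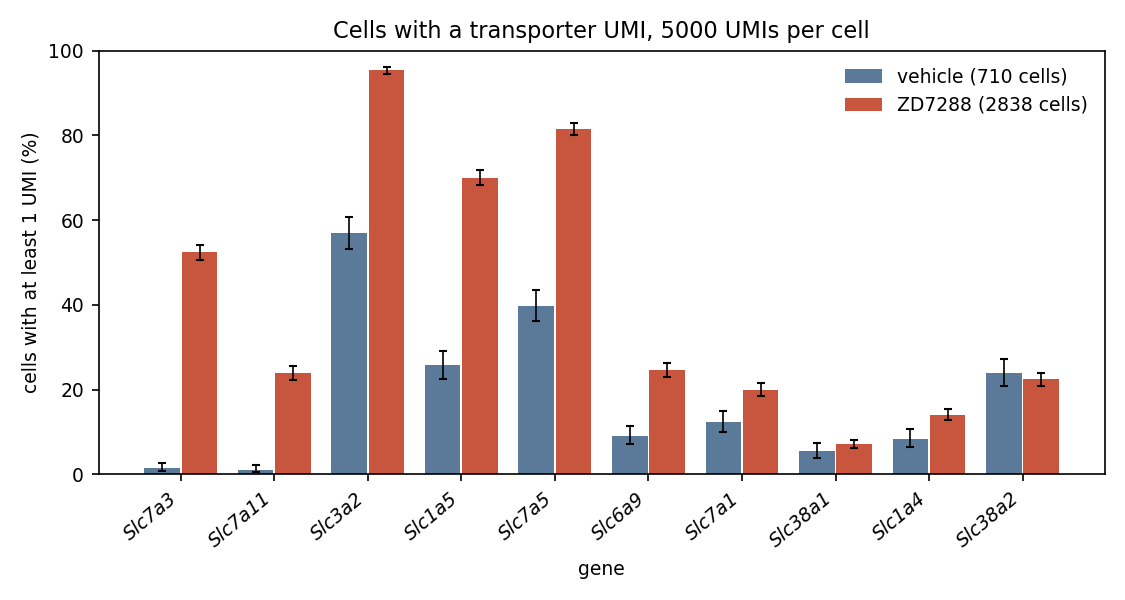
Percent of cells with at least 1 UMI of each carrier after thinning to 5000 UMIs, for 710 vehicle and 2838 ZD7288 cells, with 95% binomial intervals. Slc7a3 goes from 1.55% to 52.4%, while the intervals of Slc38a1 and of Slc38a2 overlap.

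Carrier UMIs were counted per cell, with no background share to set beside them: barcodes left out by the cell filter also held carrier UMIs, 4256 CPM in those of the ZD7288 library and 1593 CPM in those of the vehicle library. At 5000 UMIs a vehicle cell held 2.54 carrier UMIs on average (SD over cells 1.93) and a ZD7288 cell 9.78 (SD 4.845), with medians of 2 and 9. The 5th to 95th percentiles were 0 to 6 and 3 to 18, and the highest cells held 13 and 36. Of the treated cells 73.3% (2080) held more than 6, as did 4.08% of vehicle cells (29), and 95.03% of treated cells held more than the vehicle median. The distributions thus overlapped, with the treated one centred higher. No carrier UMI was seen in 87 of 710 vehicle cells and in 14 of 2838 treated cells. A median of 2 carriers was detected per vehicle cell and 4 per treated cell, and 6 or more in 0.282% and 16.1% of cells.

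**Figure D3:**
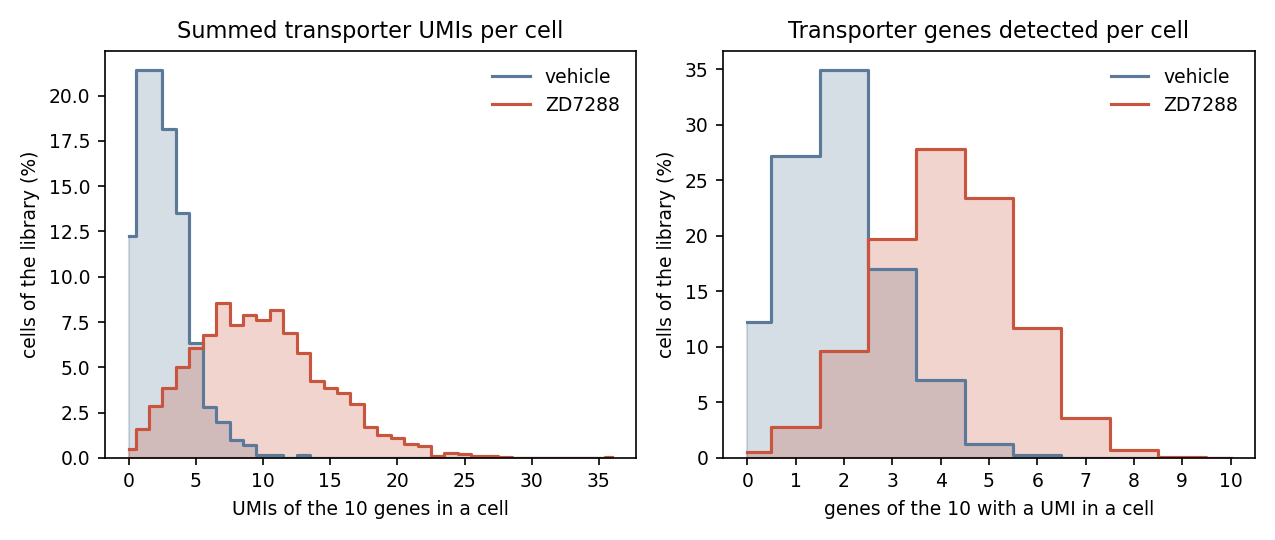
Carrier UMIs per cell, and number of the 10 carriers detected per cell, as percent of cells of each library after thinning to 5000 UMIs. The vehicle cells centre on 2 UMIs and the treated cells on 9, and only 14 of 2838 treated cells have none.

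The spread of single carriers over treated cells was set beside that of counting alone, a variance over mean of 1. The ratio was 1.73 for Slc3a2, 1.36 for Slc7a3, 1.33 for Slc7a5, 1.26 for Slc1a5 and 1.15 for Slc7a11, and between 0.995 and 1.07 for the other 5. In vehicle cells the same 5 had ratios of 1.28, 1.41, 1.21, 1.16 and 1.39. For the sum of all 10 it was 2.40 in treated and 1.47 in vehicle cells. This ratio can rise with the mean, which was 9.78 and 2.54 UMIs for the sum. It therefore compares relative spread neither between genes nor between libraries. For Slc3a2 in treated cells it lay between 1.31 and 2.43 in other settings. Slc3a2 averaged 4.30 UMIs in treated cells (SD 2.73) and reached 23.

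Joint detection was looked at in pairs, as the number of treated cells with a UMI of both genes over the number expected from the product of their shares. Of 45 pairs 42 lay above 1 and 8 at 1.1 or more, with a median of 1.04 (0.917 to 1.28). Pairs of other genes were not counted, so no share stands beside this count and nothing is read from it. In vehicle cells 17 of the 26 pairs with at least 5 expected cells lay above 1, with a median of 1.06 (0.502 to 1.59). Genes seen in nearly every cell cannot go far above 1, which holds for Slc3a2. Spearman's rho of the thinned counts over the 2838 treated cells is given beside it as a description; these cells share 1 library and 1 depth. It had a median of 0.0395 over the pairs, so most were close to 0. The median rho of each carrier with 4415 genes seen in at least 10% of treated cells lay between 0.000379 and 0.00601. The carriers were chosen with their joint detection known, so nothing is read from this difference.

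The highest rho was that of the heavy chain and its light chain, Slc3a2 with Slc7a5, at 0.295. Of treated cells with Slc7a5, 96.7% also had Slc3a2, against 89.9% of those without (2238 cells with both, 2209 expected). In vehicle cells the same pair had a rho of 0.143, and 62.4% of cells with Slc7a5 had Slc3a2 against 53.5% of those without. Slc3a2 came next with Slc7a3 (0.266), Slc1a5 (0.176) and Slc7a11 (0.172). The value follows depth: for Slc3a2 with Slc7a5 it was 0.143 at 2000 UMIs and 0.410 at 10000. Slc7a3 and Slc7a11, the 2 carriers nearly absent from the vehicle library, met in 401 treated cells with 355 expected, a ratio of 1.13. Slc7a11 was seen in 27.0% of cells with Slc7a3 and 20.4% of cells without. The highest ratio was that of Slc7a11 with Slc38a1, 1.28 on 61 cells with 47.7 expected, and the lowest that of Slc1a4 with Slc6a9, 0.917 on 90 cells with 98.1 expected.

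**Figure D4:**
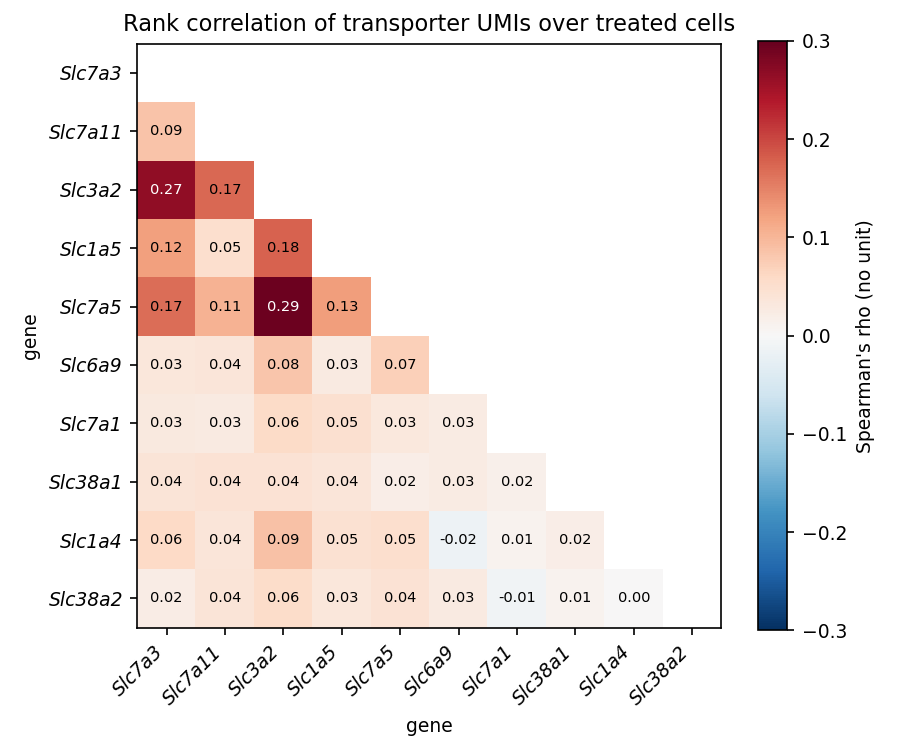
Spearman's rho of thinned UMI counts for each pair of carriers over 2838 ZD7288 cells. Slc3a2 with Slc7a5 (0.295) and with Slc7a3 (0.266) stand highest, and the pairs among Slc38a1, Slc38a2 and Slc1a4 lie near 0.

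Genes whose counts were most like those of each carrier were sought by rho among 4415 genes with a UMI in at least 10% of the treated cells. Slc3a2 came first for 6 carriers: Slc7a3, Slc7a5, Slc7a11, Slc1a5, Slc1a4 and Slc6a9. Eif4ebp1, a repressor of cap-dependent translation and an ATF4 target, was second for Slc7a3 (0.203), Slc7a5 (0.226), Slc7a11 (0.155), Slc3a2 (0.274) and Slc1a5 (0.137) and first for Slc7a1 (0.0806). Next in rank was Sars, a tRNA synthetase, for Slc7a3 (0.195), Eif2s2, a subunit of eIF2, for Slc7a5 (0.214) and Slc1a5 (0.135), and Gstp1, a glutathione transferase, for Slc7a11 (0.148). Sesn2, a leucine sensor upstream of mTORC1, was second for Slc6a9 (0.0780). For the sodium-coupled carriers the first genes were Pes1 for Slc38a1 (0.0713) and Tbl1xr1 for Slc38a2 (0.0870). Values below 0.1, which are those of Slc7a1, Slc1a4, Slc6a9, Slc38a1 and Slc38a2, Slc3a2 included, are no finding in sparse counts.

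The treated cells were next put into a lower, a middle and an upper range of about equal cell number by a summed count of 36 ATF4 targets that hold none of the 10 carriers, with cuts at 25 and 34 UMIs. These are ranges of a score, not cell types, and 5.95% of the treated cells lay at one of the cuts. All 10 carriers were at least 1.25-fold higher in the upper range than in the lower, where 7.4% of 4798 measured genes were higher and 4.96% lower by that factor. Slc38a1, under the floor, is not among those measured genes. The 1.25-fold mark, used for all ranges here, was set after the values were seen. The carriers were also chosen with their joint detection in these cells known, so nothing is read from this count. The median ratio of the 10 was 1.49 (1.32 to 2.53). The summed carriers went from 1359 over 2073 to 2516 CPM, a ratio of 1.85 (1.83 to 1.88). The largest ratios were those of Slc7a3, at 103, 187 and 261 CPM (2.53, 2.42 to 2.65), and Slc7a11, at 33.8, 65.2 and 85.1 CPM (2.52, 2.32 to 2.73). Slc7a5 went from 253 over 407 to 499 CPM (1.97), Slc3a2 from 586 over 909 to 1111 CPM (1.90) and Slc1a5 from 211 over 289 to 315 CPM (1.496). Each of these rose over both steps, the first step being the larger one.

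Slc38a2, lower in the treated library as a whole, also followed the ATF4 score inside it, at 46.5, 56.5 and 61.6 CPM (1.32, 1.23 to 1.43). So did Slc38a1 at 12.2, 14.8 and 17.2 CPM (1.41), Slc7a1 at 42.0, 52.3 and 58.5 CPM (1.39), Slc6a9 at 46.7, 59.8 and 68.7 CPM (1.47) and Slc1a4 at 25.4, 32.5 and 37.8 CPM (1.49). With scores from cells thinned to 2000 UMIs the ratio of Slc38a2 was 1.24, under the 1.25-fold mark. Median depth was alike over the 3 ranges, at 23506, 23850 and 24402.5 UMIs, while the median mitochondrial share went from 5.47% over 4.70% to 4.27%; the part of that share in the result was not tested.

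Of the 710 vehicle cells 704 lay in the lower range of the same score. Treated cells of the lower range held 1359 CPM of the carriers against 509 CPM in those vehicle cells, a ratio of 2.67 (2.60 to 2.73). Slc7a3 was 32.5-fold higher there (24.5 to 44.1), Slc7a11 10.7-fold (7.98 to 14.51), Slc3a2 3.20-fold and Slc1a5 3.03-fold. Slc1a4 was 1.23-fold higher (1.07 to 1.41), and the Slc38a2 ratio was 0.721 (0.663 to 0.786). Slc6a9 was 2.42-fold and Slc7a5 2.35-fold higher, while Slc7a1 (1.43, 1.28 to 1.59) and Slc38a1 (1.40, 1.14 to 1.73) stayed under 1.5-fold, as did Slc1a4. The 2 sets are not matched in score inside this range: the mean over the whole lower range of treated cells was 18.3 ATF4 list UMIs per cell, and over all vehicle cells 9.32. The 6 vehicle cells above the lower cut held 13 of the library's 62 Slc7a3 UMIs, in 3 of those cells.

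Ranges by mitochondrial share (cuts at 4.38% and 5.26%) ran the other way. The ratio of upper to lower range was below 1 for all 10 carriers and past 1.25-fold for 9 of them, where 8.04% of 4811 genes were lower and 4.05% higher. Slc7a11 went from 80.3 over 59.8 to 41.6 CPM (0.518, 0.479 to 0.559), Slc7a3 from 237 over 179.9 to 128 CPM (0.542) and Slc3a2 from 1028 over 885 to 669.8 CPM (0.652). Slc7a1, at 0.839 (0.774 to 0.910), was the one within 1.25-fold. Mean counts of the ATF4 list fell over the same ranges, at 35.5, 30.1 and 23.6 UMIs per cell, so the 2 scores move together and their parts were not tested. The fall was not particular to treated cells. In vehicle cells the summed carriers lay at 734, 612 and 461 CPM over these ranges, a ratio of 0.628 (0.585 to 0.675). In treated cells that ratio was 0.655 (0.647 to 0.664). Slc38a2 alone lay above 1 in vehicle cells, at 1.22 (0.949 to 1.59). Within the lower, middle and upper range, the treated library stood 3.19-, 3.30- and 3.33-fold above the vehicle library in summed carriers, each under the 3.81 over all kept cells. Slc7a11 in vehicle cells lay at 12.96 CPM in the lower range (16 UMIs in 71 cells) against 1.84 and 2.62 CPM in the others, which gave ratios between libraries of 6.19 (3.80 to 10.9), 32.5 (14.9 to 88.8) and 15.8 (10.96 to 23.8).

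**Figure D5:**
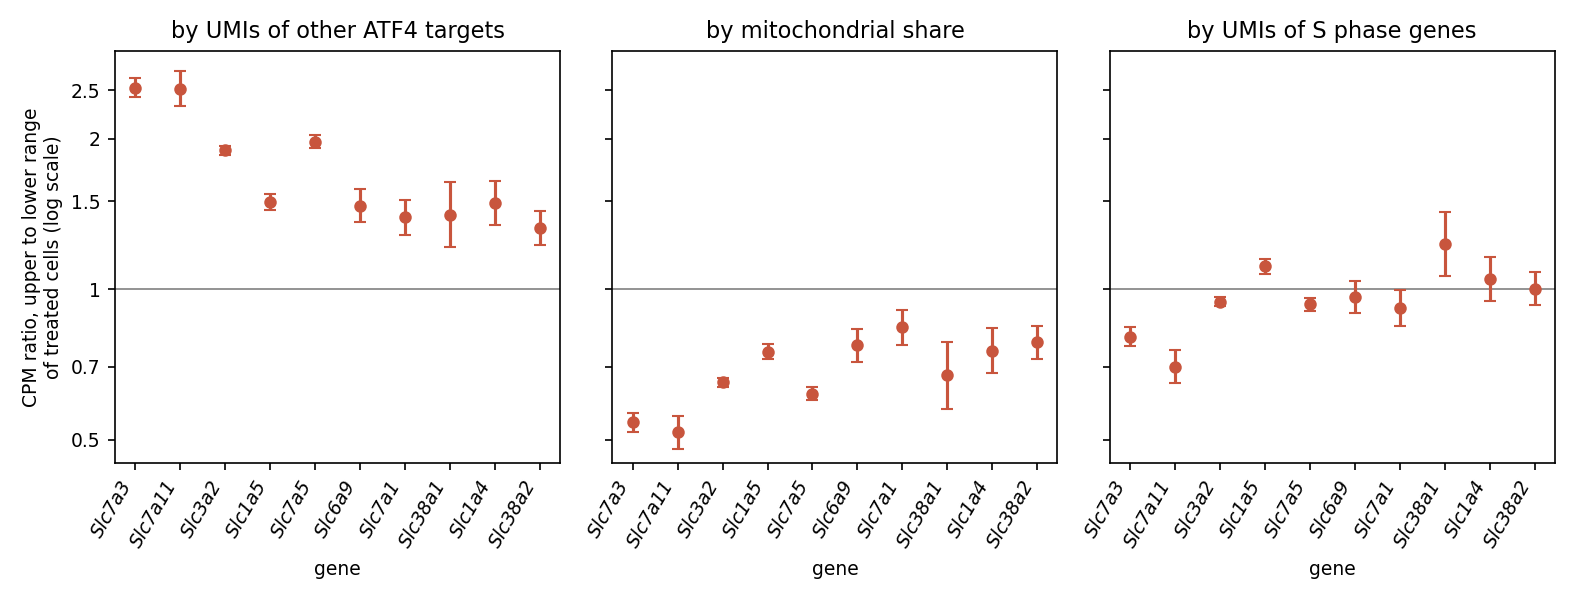
Ratio of CPM in the upper to the lower range of treated cells for each carrier, on a log axis, with exact 95% counting intervals, for ranges by ATF4 targets, mitochondrial share and S phase genes. All 10 carriers lie above 1 by ATF4 targets and below 1 by mitochondrial share, and by S phase genes Slc7a11 (0.7002) lies lowest.

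Over ranges by 19 matched NRF2 targets that leave out Slc7a11, this gene had the largest ratio of the carriers. It lay at 54.2, 54.9 and 74.2 CPM, a ratio of 1.37 (1.27 to 1.47), and was the one carrier past 1.25-fold, where 2.62% of 4808 genes were higher and 5.41% lower. Slc7a3 followed at 1.22 (1.17 to 1.28), with an interval that overlaps that of Slc7a11. In another setting Slc7a3 also passed the mark, at 1.26. Slc1a5 lay at 0.885. The mean of the ATF4 list was 28.5, 29.3 and 31.6 UMIs over these ranges. Ranges by an S phase list put Slc7a11 at 70.2, 61.2 and 49.2 CPM (0.7002, 0.649 to 0.755), the one carrier lower by 1.25-fold, where 4.78% of 4793 genes were lower and 8.66% higher. Slc7a3 went from 203 over 178 to 163 CPM (0.804), and in another setting it also passed the mark, at 0.789. Slc38a1 went the other way, at 1.23 (1.06 to 1.43). In the 3 other settings it lay at 1.29 to 1.33, past the mark. The mean of the ATF4 list was 31.4, 29.1 and 28.6 UMIs over the S phase ranges of treated cells, and its part was not tested. The summed carriers had a ratio of 0.947 (0.935 to 0.959) over these ranges in treated cells and of 1.20 (1.13 to 1.27) in vehicle cells. By a list of G2 and M phase genes, 2 of the 10 carriers were higher by 1.25-fold, Slc7a1 (1.34, 1.24 to 1.46) and Slc38a2 (1.26, 1.16 to 1.36). Of 4781 genes 15.1% were higher and 6.27% lower, so the count of carriers is near that of all genes. In another setting the ratio of Slc38a2 was 1.19, under the mark. Median depth over these ranges was 21699, 23967 and 28462 UMIs. Ranges by depth itself left the sum at a ratio of 0.992 (0.978 to 1.01), with Slc7a1 (1.39) and Slc7a11 (1.32) higher by 1.25-fold, as were 5.37% of measured genes, while 1.8% were lower.

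Other amino acid carriers were mostly too low to follow. Of 34 further plasma membrane carriers, all matched, 10 had no UMI in either library and 2 were measured. Slc1a3, the glutamate carrier of radial glia and astrocytes, went from 186 to 294 CPM, a ratio of 1.58 (1.52 to 1.64), while Slc38a3 lay at 35.2 and 33.7 CPM (0.958). The 34 summed to 260 and 366 CPM. Of 10 lysosomal carriers 0 were measured, and they summed to 38.8 and 45.5 CPM. Of 13 mitochondrial carriers 3 were measured and 0 passed 1.5-fold in either direction, with the serine carrier Sfxn1 the most abundant at 99.5 and 135 CPM (1.36). Over the whole Slc family apart from the 10, 45 of 347 matched genes were measured, and 4 were higher (8.89%) and 1 lower (2.22%), near the background. The 4 were Slc1a3, Slc48a1 (3.46), Slc33a1 (1.72) and Slc35a5 (1.60), the last 3 of which reached the floor only in the treated library. Slc48a1 is also on the list of NRF2 targets, and Slc1a3 on those of plasma membrane carriers and neural stem cell markers.

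Among 30 matched genes of amino acid sensing and mTORC1, 12 were measured, 2 were higher and 0 lower by 1.5-fold, with a median log2 ratio of 0.03. The 2 were Sesn2, at 19.3 and 119 CPM (6.17, 5.50 to 6.95), and Rraga, a Rag GTPase that recruits mTORC1 to the lysosome, at 70.4 and 116 CPM (1.65, 1.55 to 1.76). Sesn2 reached the floor only in the treated library, and it is also on the list of ATF4 targets, so it is counted in both. Of 36 matched ATF4 targets that are no carriers, 25 were measured and 25 of these were higher, with a median log2 ratio of 1.69. Of the 25, 10 reached the floor only in the treated library, where they had to be the higher, among them the 4 named next; the 15 at the floor in the vehicle library were each higher by 1.5-fold, against 7.16% of such genes. Trib3, an ATF4-induced pseudokinase, went from 0.705 to 66.0 CPM (93.6, 52.3 to 188), Cth, which makes cysteine from cystathionine, from 3.52 to 100.2 CPM (28.4, 21.8 to 37.8), and Pck2, the mitochondrial PEP carboxykinase, from 4.93 to 76.3 CPM (15.5, 12.4 to 19.6). Chac1, which degrades glutathione, went from 3.72 to 55.2 CPM (14.8, 11.5 to 19.6). Of 19 matched NRF2 targets, 15 were measured and 7 were higher, among them Nqo1 at 3.59 and 39.2 CPM (10.9, 8.39 to 14.497). Of the 7, 4 (Nqo1, Hmox1, Gclc and Slc48a1) reached the floor only in the treated library, and of the 11 at the floor in the vehicle library 3 were higher and 0 lower. Both lists hold genes known from earlier results of these libraries, and their counts are not independent evidence. S phase genes (30 measured) had 0 higher and 0 lower, and G2 and M phase genes (42 measured) 0 higher and 1 lower.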

How the data were processed

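The deposited matrix held raw UMI counts per gene and cell barcode, made by the authors with Cell Ranger per the submitters' processing notes (matrix header software version 3.0.2), from a 10x 3′ version 2 kit per the labels. The genome build is not given in the sources used here. Barcode suffixes 1 and 2 were matched to the numbers in the sample titles, which alone sets the direction of the ratios. Kept cells had at least 1000 UMIs, at least 500 genes and at most 10% mitochondrial UMIs. Counts were summed per library and scaled to 1000000. As each group was 1 library, nothing was tested and no p-value is given. Ratios carry exact Clopper-Pearson 95% intervals, CPM Poisson and shares binomial ones. A count of 0 allowed 3 counts, or 0.192 and 0.0407 CPM. Members, lists and markers were chosen with earlier results of these data known, and the 1.25-fold mark for ranges of cells after seeing them. Named genes were the 10 members, per list up to 4 measured genes with the largest ratio past 1.5-fold (or the 2 most abundant), and per member the 3 most alike in rho. Not all of them are printed, and Olig1 and the other markers named were picked after their values were seen. Doublets were scored against simulated doublets (0.8% per 1000 cells: 4 vehicle, 79 ZD7288), kept, and left out in another setting. Methods were tested on simulated data. Python 3.11.15, numpy 2.4.6, scipy 1.17.1, pandas 2.3.3, scikit-learn 1.9.0 and matplotlib 3.10.9 were used.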

Additional observations from a re-analysis of the deposited data

Results flagged for a closer look

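Barcodes left out by the cell filter were no part of the comparisons, and they held carrier UMIs above the level of the vehicle library. In the 714 ZD7288 barcodes left out (2075771 UMIs) the 10 carriers summed to 4256 CPM (4167 to 4345), and in the 110 vehicle barcodes left out (324014 UMIs) to 1593 CPM (1458 to 1736), a ratio of 2.67 (2.45 to 2.93). Both values are above those of the kept cells, 1965 and 516 CPM. Slc3a2 lay at 2119 and 818 CPM in the left-out barcodes of the 2 libraries. Slc7a3 had 811 UMIs in the treated ones (391 CPM) and 1 UMI in the vehicle ones (3.09 CPM).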

How the results depend on the processing

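With 9 other settings for the libraries, the cells and their weight, each of the 10 ratios kept its direction, from 38.4 to 47.4 for Slc7a3, 16.9 to 20.7 for Slc7a11 and 0.794 to 0.945 for Slc38a2. The summed ratio was 3.58 with scaling by the median gene ratio, which was 1.06 (log2 0.09), 3.62 with totals that leave out mitochondrial and ribosomal genes, and 3.71 with each cell weighted equally. Of 10 carriers, 6 were higher at the 2-fold rule, 7 with equal weight and 8 or 9 in the rest, and 0 were lower in any. Slc1a4 lay at 1.44, 1.46, 1.49 and 1.499 where it missed 1.5-fold. The percent of measured genes 1.5-fold higher was 9.78 at a floor of 50 CPM and 7.16 at 20 CPM in the vehicle library, and the percent lower 6.60 at 10 CPM and 2.98 at 50 CPM. Scaling by the median gene ratio gave 7.30 higher and 7.40 lower, the highest percent lower of these settings. Median joint detection over expected was 1.06 at 2000 UMIs, 1.02 at 10000, 1.04 without doublets and 1.04 with the stricter cell filter. Removing the cells with shared barcodes was chosen after seeing the data. No paired analysis was possible because each group is 1 library. Depth limits Slc7a3 and Slc7a11 in the vehicle library, with 62 and 51 UMIs, and with 1 library per group the intervals say nothing of the spread between cultures.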

Other observations

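Outside the 10 carriers, 41 plasma membrane and lysosomal carriers lay below the floor of 20 CPM. The counting interval of the ratio lay above 1 for 3 of them and below 1 for 3, and all 6 were picked after their values were seen. Slc7a7, a light chain of Slc3a2 that exports arginine and lysine, went from 0.256 to 2.89 CPM, a ratio of 11.3 (4.34 to 41.8) on 4 vehicle UMIs. Slc6a15, a carrier of branched-chain amino acids and proline, had a ratio of 2.62 (1.52 to 4.89), and Ctns, the lysosomal cystine exporter, went from 5.06 to 10.3 CPM, a ratio of 2.04 (1.61 to 2.60). The 3 lower ones were the taurine carrier Slc6a6 at 0.387 (0.227 to 0.674), Slc36a4 at 0.530 (0.310 to 0.939) and Slc38a4 at 0.283 (0.0860 to 0.988), the last on 6 and 8 UMIs.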
